A study of Mus musculus with 28 samples.

Results

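The genes described here are the Wnt ligands of the mouse, their receptors and their inhibitors, measured in sorted cells and tumours of the mammary gland. They were chosen by symbol: every gene whose single annotated symbol starts with Wnt, Fzd, Sfrp, Dkk or Rspo and a digit, with Wif1, Axin2, Lrp5, Lrp6, Porcn, Lef1, Nkd1, Notum, Rnf43 and Znrf3 added by name. The rule gave 51 of the 17097 genes with a symbol of their own on the array. They are 19 Wnt ligands, 4 R-spondins, the acyltransferase Porcn, 10 Frizzled receptors, 2 co-receptors, 9 secreted inhibitors, 4 feedback genes, the transcription factor Lef1 and Fzd10os. Fzd10os, an RNA transcribed from the strand opposite Fzd10, matched the pattern by its name and is no receptor. Tcf7, also named by the rule, was not analysed here.

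RNA of 28 FACS-sorted samples in 11 groups was hybridised to Affymetrix arrays. All mice were female, carried the RosaYFP reporter and received 3 injections of 5 mg tamoxifen, 3 days apart, from an age of 4 to 5 weeks. Tumour cells came from K8CREERT2/PIK3CA-H1047R/p53flox/flox mice (K8-PIK-p53, 2 arrays), K5CREERT2/PIK3CA-H1047R mice (K5-PIK, 3 arrays) and K8CREERT2/PIK3CA-H1047R mice (K8-PIK, 7 arrays). YFP+ cells before tumours were sorted from the basal and the luminal gate, 2 arrays each, of K8-PIK mice at 8 weeks after tamoxifen and of K5-PIK mice at 10 months. The controls, without PIK3CA-H1047R, were YFP+ basal cells of K5CREERT2 mice and YFP+ luminal cells of K8CREERT2 mice at 8 weeks and at 10 months, 2 arrays each. K5CREERT2 recombines in basal cells and K8CREERT2 in luminal cells. A K8-PIK cell in the basal gate, or a K5-PIK cell in the luminal gate, therefore differs from the control of its gate by PIK3CA-H1047R and also by its Cre driver, and the 2 cannot be told apart. The YFP gates differ in driver too. The labels do not say that replicates came from separate mice, so p-values measure the spread between these samples only.

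Wnt proteins are secreted with a lipid that Porcn attaches and that Frizzled receptors bind. With the co-receptors Lrp5 and Lrp6 they stabilise beta-catenin, which acts with Tcf and Lef factors on target genes, while ligands such as Wnt5a and Wnt11 are better known for signalling without beta-catenin. R-spondins keep Frizzleds at the surface by removing the ubiquitin ligases Rnf43 and Znrf3, and Sfrps, Wif1, Dkks and Notum act outside the cell against the ligands or the co-receptors. In the mouse mammary gland Wnt4 is made by luminal cells under progesterone and acts with Rspo1 on basal cells.

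Values are the deposited log2 expression values, from 1 probe set per gene, and differences are log2 differences ± SE from limma. Only genes above the 40th percentile of an array (3.89 to 3.99 across arrays) on 2 or more of the arrays fitted were tested. A call means an adjusted p under 0.05, by Benjamini-Hochberg over all genes tested. Of the 51 genes, 38 were tested among sorted cells, 38 among tumours and 40 in the fit of all arrays. The basal marker list (Krt5, Krt14, Trp63, Acta2 and 4 others) averaged 10.05 to 10.08 in K8-PIK basal, 10.25 to 10.54 in K5-PIK basal and 9.91 to 10.30 in YFP basal arrays. In luminal-gate arrays it averaged 6.80 to 7.67 in K8-PIK, 7.19 to 7.35 in K5-PIK and 5.91 to 7.04 in YFP cells. Its members split: Krt5 (10.58 against 7.77), Krt14 (10.62 against 8.43) and Trp63 (6.57 against 5.36) were higher in K8-PIK than in YFP luminal cells of 8 weeks. Mylk was alike, and Acta2, Myh11, Cnn1 and Oxtr were lower. Of the luminal markers Foxa1 was at 7.97 in K8-PIK basal against 4.25 in YFP basal cells of 8 weeks, while the other luminal markers were lower. All 8 basal and all 9 luminal markers lay above that percentile in every group but both basal groups of 10 months, where 8 of the 9 luminal markers did. Endothelial markers averaged 6.13 to 7.29 in YFP basal arrays against 4.73 to 5.69 in YFP luminal arrays, and fibroblast markers 6.24 to 7.08 against 4.93 to 5.96. Pericyte markers averaged 5.28 to 6.21 against 4.37 to 5.07, immune markers 5.13 to 5.46 against 4.34 to 5.02, and adipocyte markers 5.38 to 5.73 against 4.48 to 5.19. Of the 3 adipocyte markers only Fabp4 lay above the percentile, with 10.34 in YFP basal against 8.63 in YFP luminal cells at 8 weeks. Among fibroblast markers Dcn was lower in YFP basal cells (9.38 against 9.45 at 8 weeks, 9.01 against 10.14 at 10 months). The dim Col1a2 was lower too (3.37 against 3.51, 3.23 against 3.53), and the other fibroblast markers were higher.

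Of the 51 genes, 28 were called in at least 1 of 18 comparisons, with 150 calls in all. Of the 40 tested in any fit that is 70%, against 66.7% of the 13663 genes tested. The other 23 were called in none. Of these, 7 never lay above the percentile on any of the 28 arrays, at 2.74 to 3.90: the ligands Wnt2, Wnt3, Wnt7a and Wnt8b, the R-spondins Rspo2 and Rspo3, and the inhibitor Dkk1. A further 12 were tested but called in none of these 18 comparisons. They were Wnt2b, Wnt3a, Wnt6, Wnt9a, Wnt9b, Wnt10b, Wnt16, Dkk2, Dkk4, Sfrp5, Nkd1 and the co-receptor Lrp5. Lrp5 lay between 7.86 and 9.07 on every array. Some of the 12 were called under an alternative, among them Nkd1 and Sfrp5 between YFP gates at 8 weeks with the mean of probe sets. Wnt1, Wnt8a, Notum and Lef1 were too dim to be tested in any fit.

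**Figure D1:**
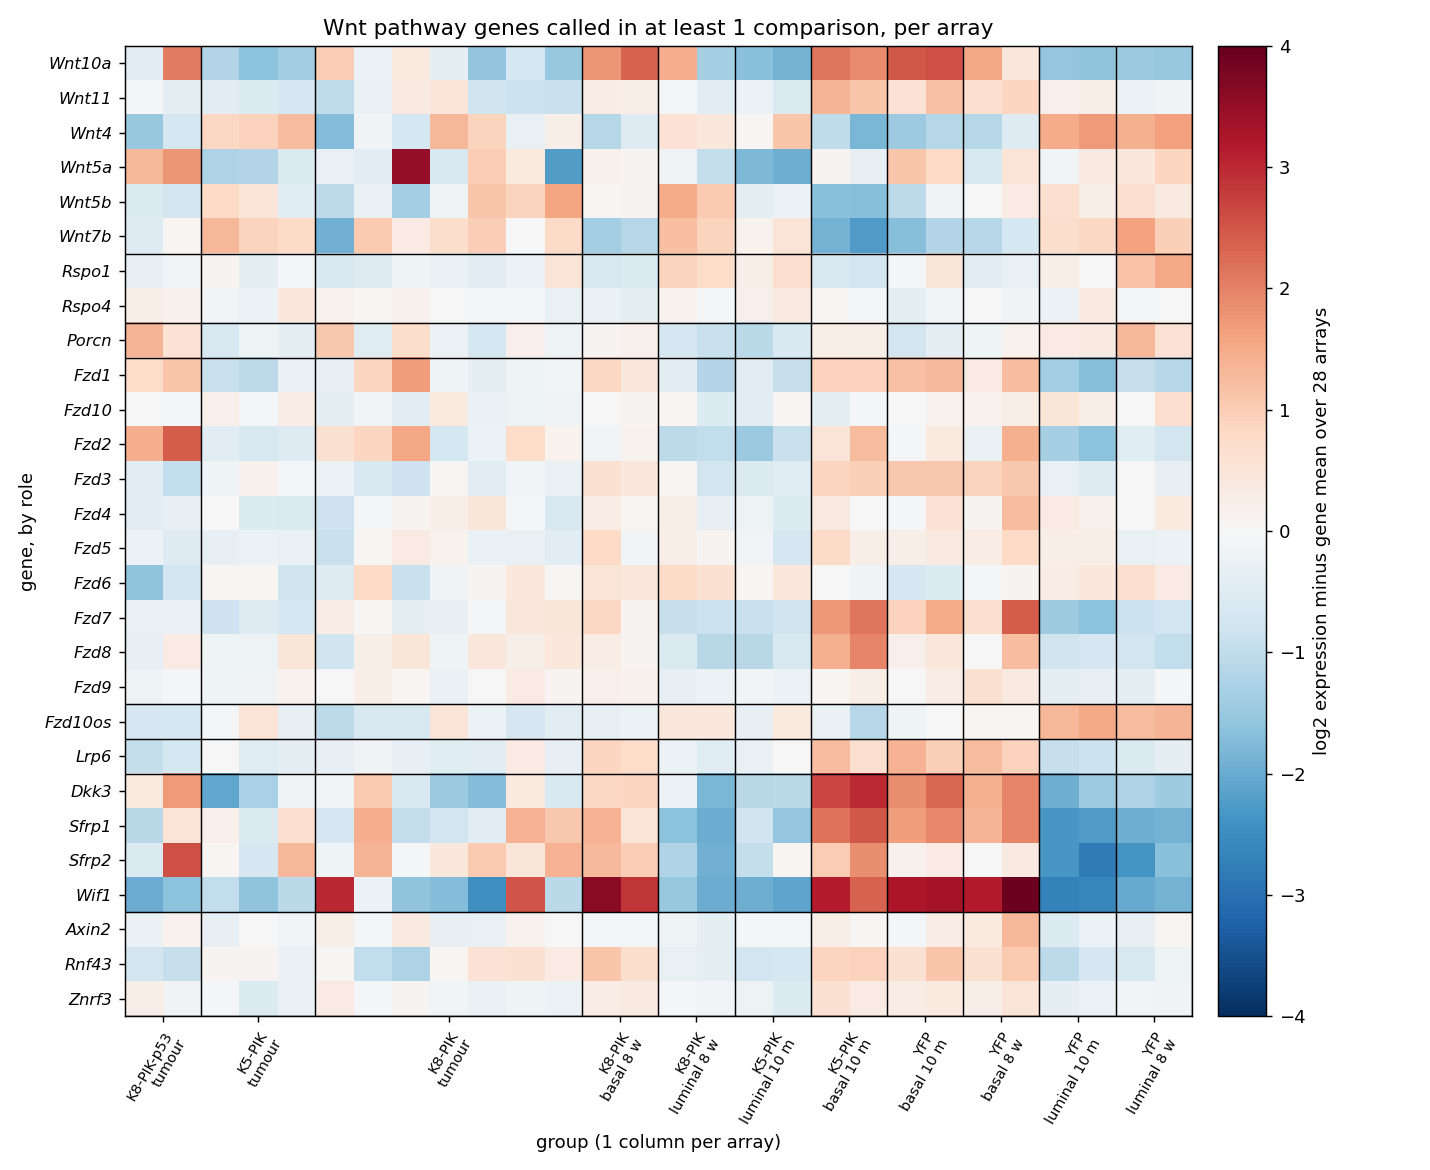
Log2 expression minus the gene's mean over the 28 arrays (colour), for the 28 genes called in at least 1 comparison (rows, by role) on every array (columns, by group). Dkk3, Sfrp1 and Wif1 are high in all basal-gate columns and low in all luminal-gate columns, Wnt4 and Wnt7b run the other way, and the 7 K8-PIK tumours differ among themselves, most visibly in Wif1 and Wnt5a.

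Between the gates 16 to 21 of the 38 genes tested were called in each of 4 comparisons. In YFP cells 15 were higher and 5 lower in basal than in luminal cells at 8 weeks, and 15 were higher and 6 lower at 10 months. The members' shares called were 52.6% and 55.3%. The background over all 13150 genes was 30.3%, with 10.4% higher and 19.9% lower at 8 weeks. At 10 months it was 43.4%, with 17.6% higher and 25.8% lower. In basal over luminal K8-PIK cells 12 were higher and 4 lower (background 19.5%, with 8.9% higher and 10.6% lower), and in luminal over basal K5-PIK cells 4 were higher and 17 lower (background 23.6%, with 10.4% higher and 13.2% lower). Of the 21 calls in YFP cells at 10 months and the 20 at 8 weeks, 18 were shared, 85.7% and 90% of the lists. The K8-PIK gates shared 14 calls of the same direction with the YFP gates of 8 weeks, 87.5% of their own 16 and 70% of the 20. The K5-PIK gates shared 17 with the YFP gates of 10 months, 81% of either list of 21. In both pairings Porcn was called in the opposite direction. Shared calls were not counted over all genes tested, so these shares cannot be read as particular to the members. These are bulk samples, so fewer cells of a type and less RNA per cell cannot be told apart.

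The median log2 difference of the tested members was 0.57 between YFP gates at 8 weeks and 0.11 at 10 months, against -0.09 and -0.12 over all genes tested. With the endothelial marker mean of each array as a covariate 9 of the 20 calls of 8 weeks were kept, and with the fibroblast marker mean, an alternative chosen after seeing the data, 13 were. Of the 21 calls of 10 months 15 and 14 were kept, of the 16 between K8-PIK gates 13 and 11, and of the 21 between K5-PIK gates 21 and 16. The fibroblast mean also differed between PIK gates, at 6.33 in K8-PIK basal against 5.20 in K8-PIK luminal cells. In K5-PIK cells it was 6.64 in basal against 5.26 in luminal cells. A marker mean that follows the gate can take up part of the gate difference. Calls lost with a covariate can therefore not be read as due to those cells. The 16 calls between K8-PIK gates became 8 without the replicate 1 array of K8-PIK basal cells, 9 without the replicate 2 array of K8-PIK luminal cells and 8 in a fit of all 28 arrays. Of the 16, 8 calls (Dkk3, Lrp6, Rnf43, Rspo1, Sfrp1, Sfrp2, Wif1 and Wnt7b) were kept whichever single array was left out. The share of calls kept over all genes is not given here, so these losses cannot be read as particular to the members.

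Among the ligands, Wnt4 and Wnt7b were high in luminal cells and Wnt10a and Wnt11 in basal cells. Wnt4 had 6.27 and 6.90 in K8-PIK basal cells, against 8.00 and 7.86 in K8-PIK luminal cells. In K5-PIK mice it had 7.49 and 8.52 in luminal cells, against 6.41 and 5.60 in basal cells. In YFP mice it had 6.28 and 6.92 in basal cells of 8 weeks, against 8.84 and 9.06 in luminal cells, and 5.98 and 6.30 at 10 months, against 8.91 and 9.13. Every luminal array lay above every basal array, with the PIK luminal arrays below the YFP luminal ones. The gate difference was -1.34 ± 0.35 in K8-PIK cells (basal minus luminal, adjusted p = 0.0188), 2.01 ± 0.35 in K5-PIK cells (luminal minus basal, adjusted p = 0.00125), -2.34 ± 0.35 in YFP cells at 8 weeks (adjusted p = 0.000542) and -2.88 ± 0.35 at 10 months (adjusted p = 6.1e-05). Only the K8-PIK call was lost when 1 array was left out, with adjusted p up to 0.18 without the replicate 1 array of K8-PIK basal cells or either K8-PIK luminal array, and it was also lost in the fit of all 28 arrays (adjusted p = 0.214).

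Wnt7b, a ligand that signals through beta-catenin, had 6.24 and 6.47 in K8-PIK basal cells, against 8.80 and 8.50 in K8-PIK luminal cells. It had 7.77 and 8.13 in K5-PIK luminal cells, against 5.73 and 5.35 in K5-PIK basal cells. YFP basal cells had 6.49 and 6.92 at 8 weeks, against 9.21 and 8.57 in luminal cells, and 5.92 and 6.43 at 10 months, against 8.32 and 8.45. The gates did not overlap in any pair, and the difference was near 2 log2 units in all 4, at -2.29 ± 0.26 in K8-PIK (adjusted p = 9.8e-05), 2.41 ± 0.26 in K5-PIK (luminal minus basal, adjusted p = 3.47e-05), and -2.19 ± 0.26 and -2.21 ± 0.26 in YFP cells. Each of these 4 calls was kept when any single array was left out. The second probe sets of Wnt4 and Wnt7b followed the ones used, with Pearson's r of 0.96 and 0.99 over the 28 arrays, given as a description.

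Wnt10a, a beta-catenin ligand of epithelia, had 6.97 and 7.56 in K8-PIK basal cells, against 6.67 and 3.88 in K8-PIK luminal cells. It had 3.54 and 3.34 in K5-PIK luminal cells, against 7.34 and 7.10 in K5-PIK basal cells. Values in YFP basal cells were 6.75 and 5.66 at 8 weeks, against 3.73 and 3.70 in luminal cells, and 7.71 and 7.80 at 10 months, against 3.68 and 3.61. Of the 8 luminal arrays, 7 lay at or below 3.88, and the replicate 1 array of K8-PIK luminal cells stood at 6.67, between the YFP basal arrays of 8 weeks. The basal marker list averaged 7.67 on that array and 6.80 on its replicate, and the part of basal cells in the value was not tested. The gate difference was 1.99 ± 0.63 in K8-PIK cells (adjusted p = 0.0412, and up to 0.395 without either K8-PIK basal array or the replicate 2 K8-PIK luminal array), -3.78 ± 0.63 in K5-PIK cells (luminal minus basal, adjusted p = 0.000789), and 2.49 ± 0.63 and 4.11 ± 0.63 in YFP cells. The YFP call of 8 weeks (adjusted p = 0.0104) was lost without the replicate 1 array of either YFP group, with adjusted p up to 0.0939. With the endothelial or the fibroblast covariate both of these calls were lost, at adjusted p = 0.201 and 0.147 for YFP cells of 8 weeks and 0.0912 and 0.236 for K8-PIK cells. The K8-PIK call was lost too with no filter (0.0584) and when all 28 arrays were fitted (0.139). As 7 of the 8 luminal arrays lay below the limit for dim genes, the sizes of these differences are uncertain.

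Wnt11 and Wnt5b differed less. Wnt11 had 5.22 and 4.88 in K5-PIK luminal cells, against 6.84 and 6.58 in K5-PIK basal cells (-1.66 ± 0.21, adjusted p = 0.000104). In YFP basal cells it had 6.15 and 6.32 at 8 weeks, against 5.24 and 5.31 in luminal cells (0.96 ± 0.21, adjusted p = 0.00488), and 6.05 and 6.64 at 10 months, against 5.67 and 5.70 (0.66 ± 0.21). The call of 10 months was lost without the replicate 2 array of YFP basal cells or either YFP luminal array, with adjusted p up to 0.222. Both YFP calls were lost with the endothelial covariate (0.285 and 0.838), with the fibroblast covariate (0.172 and 0.556) and in the fit of all 28 arrays (0.093 and 0.209). In K8-PIK cells the gates had 5.75 and 5.72 in basal, against 5.37 and 5.02 in luminal cells, a difference of 0.54 ± 0.21 that did not pass the threshold (adjusted p = 0.0931).

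Wnt5b, a ligand best known for signalling without beta-catenin, was higher in luminal cells of both PIK genotypes, with 7.07 and 7.15 in K8-PIK basal cells, against 8.51 and 8.08 in K8-PIK luminal cells. It had 6.67 and 6.79 in K5-PIK luminal cells, against 5.37 and 5.32 in K5-PIK basal cells. The YFP basal arrays had 7.06 and 7.35 at 8 weeks, against 7.70 and 7.38 in luminal cells, and 6.00 and 6.88 at 10 months, against 7.68 and 7.26. The YFP groups of 8 weeks lay close together (-0.34 ± 0.26, adjusted p = 0.374), while the other 3 pairs passed the threshold at -1.18 ± 0.26, 1.38 ± 0.26 (luminal minus basal) and -1.03 ± 0.26. The K8-PIK and YFP calls were lost with 1 array left out: the replicate 1 array of either K8-PIK group, or the replicate 1 array of either YFP group of 10 months, with adjusted p up to 0.0638 and 0.105. In the fit of all 28 arrays all 3 were lost (adjusted p = 0.317, 0.202 and 0.264), and with the fibroblast covariate the YFP call was (0.057).

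Wnt5a, the main ligand of signalling without beta-catenin, had 3.67 and 3.50 in K5-PIK luminal cells, against 5.56 and 5.13 in K5-PIK basal cells. It had 5.63 and 5.57 in K8-PIK basal, against 5.33 and 4.52 in K8-PIK luminal cells. YFP basal cells had 4.82 and 6.02 at 8 weeks, against 5.89 and 6.32 in luminal cells, and 6.58 and 6.26 at 10 months, against 5.35 and 5.84. The 2 K5-PIK luminal arrays were the lowest of the 16, and the gate difference there was -1.76 ± 0.36 (adjusted p = 0.00327). Both lay below the limit for dim genes, which leaves its size uncertain, and the call was lost with the fibroblast covariate (adjusted p = 0.104) and in the fit of all 28 arrays (0.297).

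Of the R-spondins, Rspo1 and Rspo4 were bright enough to be tested. Rspo1 had 3.07 and 3.16 in K8-PIK basal cells, against 4.59 and 4.43 in K8-PIK luminal cells. It had 3.95 and 4.37 in K5-PIK luminal cells, against 3.07 and 2.96 in K5-PIK basal cells. In YFP mice basal cells had 3.27 and 3.41 at 8 weeks, against 4.84 and 5.21 in luminal cells, and 3.62 and 4.18 at 10 months, against 3.98 and 3.69. All K8-PIK, K5-PIK and 8-week pairs were higher in luminal cells (-1.39 ± 0.22, 1.15 ± 0.22 as luminal minus basal, and -1.69 ± 0.22), and the groups of 10 months overlapped (0.06 ± 0.22, adjusted p = 0.834). Basal values lay below the limit for dim genes except on 1 YFP array of 10 months. Rspo4 ranged from 4.32 to 5.15 over all arrays and was called once, in K5-PIK luminal over YFP basal cells (0.54 ± 0.20, adjusted p = 0.0483), a call lost without any 1 of those 4 arrays (adjusted p up to 0.271), with either covariate and in the fit of all 28 arrays.

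Among the receptors, Fzd1, Fzd3, Fzd7 and Fzd8 and the co-receptor Lrp6 were higher in basal cells in all 4 gate comparisons. Fzd7, a beta-catenin receptor linked to mammary stem cell activity, had 6.88 and 6.16 in K8-PIK basal cells, against 5.13 and 5.18 in K8-PIK luminal cells. It had 5.17 and 5.26 in K5-PIK luminal cells, against 7.79 and 8.19 in K5-PIK basal cells. YFP basal cells had 6.69 and 8.48 at 8 weeks, against 5.18 and 5.29 in luminal cells, and 6.99 and 7.54 at 10 months, against 4.63 and 4.42. The gates did not overlap, with K5-PIK basal cells the highest and K8-PIK basal cells the lowest of the basal groups on average. The differences were 1.36 ± 0.43 (adjusted p = 0.042), -2.77 ± 0.43 (luminal minus basal, adjusted p = 0.000482), 2.35 ± 0.43 (adjusted p = 0.0018) and 2.74 ± 0.43 (adjusted p = 0.000367). The K8-PIK call was lost without the replicate 1 array of K8-PIK basal cells or either K8-PIK luminal array (adjusted p up to 0.296), with no filter (0.0573) and with the endothelial or the fibroblast covariate (0.101 and 0.173). The YFP call of 8 weeks was lost with the endothelial covariate (0.103).

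The co-receptor Lrp6, which carries the Wnt signal with a Frizzled, had 9.27 and 9.13 in K8-PIK basal cells, against 8.16 and 7.91 in K8-PIK luminal cells, and 8.10 and 8.38 in K5-PIK luminal cells, against 9.62 and 9.04 in K5-PIK basal cells. Values in YFP basal cells were 9.66 and 9.31 at 8 weeks, against 7.81 and 8.04 in luminal cells, and 9.78 and 9.36 at 10 months, against 7.49 and 7.53. Basal arrays lay above luminal arrays throughout, by 1.16 ± 0.22, -1.09 ± 0.22 as luminal minus basal, 1.56 ± 0.22 and 2.06 ± 0.22 (adjusted p = 0.00316, 0.0035, 0.000391 and 2.51e-05). All 4 calls were kept with any single array left out, and the K5-PIK call was lost with the fibroblast covariate (adjusted p = 0.0576).

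Fzd1, a beta-catenin receptor, had 7.31 and 6.91 in K8-PIK basal cells, against 6.07 and 5.32 in K8-PIK luminal cells, and 6.08 and 5.56 in K5-PIK luminal cells, against 7.42 and 7.41 in K5-PIK basal cells. The YFP basal arrays had 6.81 and 7.73 at 8 weeks, against 5.55 and 5.35 in luminal cells, and 7.65 and 7.80 at 10 months, against 5.12 and 4.77. The gates were apart in each pair (1.42 ± 0.31, -1.60 ± 0.31 as luminal minus basal, 1.83 ± 0.31 and 2.78 ± 0.31). Fzd3, a receptor of planar cell polarity, had 6.80 and 6.61 in K8-PIK basal cells, against 6.24 and 5.45 in K8-PIK luminal cells, and 5.62 and 5.70 in K5-PIK luminal cells, against 7.04 and 7.13 in K5-PIK basal cells. In YFP basal cells it had 7.07 and 7.29 at 8 weeks, against 6.19 and 5.85 in luminal cells, and 7.26 and 7.28 at 10 months, against 5.91 and 5.66. Its basal minus luminal differences were 0.86 ± 0.23 in K8-PIK cells and 1.16 ± 0.23 and 1.48 ± 0.23 in YFP cells, and luminal minus basal was -1.42 ± 0.23 in K5-PIK cells, with no overlap in any pair. The K8-PIK calls of both were lost without the replicate 1 array of K8-PIK basal or the replicate 2 array of K8-PIK luminal cells, with adjusted p up to 0.091 for Fzd1 and 0.224 for Fzd3. They were lost with the fibroblast covariate as well (adjusted p = 0.0782 and 0.0679), Fzd1 also in the fit of all 28 arrays (0.0886) and Fzd3 with the mean of probe sets (0.08). With the endothelial covariate both YFP calls of 8 weeks were lost (0.0851 and 0.0882), and with the fibroblast covariate the K5-PIK call of Fzd1 was (0.0606).

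Fzd8, a further receptor, stood highest in K5-PIK basal cells, with 4.05 and 4.50 in K5-PIK luminal cells, against 6.56 and 7.11 in K5-PIK basal cells. It had 5.44 and 5.26 in K8-PIK basal cells, against 4.57 and 4.05 in K8-PIK luminal cells. In YFP mice basal cells had 5.14 and 6.39 at 8 weeks, against 4.39 and 4.16 in luminal cells, and 5.34 and 5.61 at 10 months, against 4.36 and 4.48. The K5-PIK difference was -2.55 ± 0.34 (luminal minus basal, adjusted p = 0.000154), and the others were 1.04 ± 0.34, 1.49 ± 0.34 and 1.06 ± 0.34. Outside K5-PIK cells each of these calls was lost without at least 1 array, in the K8-PIK pair and in the YFP pair of 10 months without any 1 of the 4, and at 8 weeks without the replicate 2 array of YFP basal cells (adjusted p up to 0.31, 0.117 and 0.0503). With the endothelial covariate all 3 were lost (adjusted p = 0.108 in K8-PIK cells, 0.163 and 0.348 in YFP cells), and with the fibroblast covariate those of K8-PIK cells (0.109) and of YFP cells at 10 months (0.0881). The K8-PIK call was also lost with no filter, with quantile normalisation and in the fit of all 28 arrays (0.0631, 0.0733 and 0.114).

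Fzd2 had 5.30 and 5.87 in K5-PIK luminal cells, against 7.30 and 8.05 in K5-PIK basal cells (-2.09 ± 0.43, adjusted p = 0.00327). YFP basal cells of 10 months had 6.72 and 7.17, against 5.43 and 5.14 in luminal cells (1.66 ± 0.43, adjusted p = 0.00778, lost without the replicate 2 array of either group at up to 0.059, with the endothelial or the fibroblast covariate at 0.157 and 0.0597, and with the mean of probe sets at 0.083). At 8 weeks the values were 6.50 and 8.20 in YFP basal cells, against 6.29 and 6.04 in YFP luminal cells, and 6.66 and 6.90 in K8-PIK basal cells, against 5.72 and 5.78 in K8-PIK luminal cells. Neither pair of 8 weeks passed the threshold (adjusted p = 0.0529 and 0.117), though the groups did not overlap. Fzd9, a dim gene, had 4.57 and 4.34 in YFP basal cells at 8 weeks, against 3.58 and 3.91 in luminal cells, and 3.97 and 4.28 at 10 months, against 3.60 and 3.64. Its YFP differences of 0.71 ± 0.17 and 0.50 ± 0.17 were called. The call of 8 weeks was lost without the replicate 1 array of either group, and that of 10 months without the replicate 2 basal or either luminal array (adjusted p up to 0.0942 and 0.211). Both were lost with the endothelial covariate (0.156 and 0.298) and with the fibroblast covariate (0.129 and 0.286). In the PIK groups Fzd9 had 4.18 and 4.13 in K8-PIK basal cells, against 3.64 and 3.74 in luminal cells, and 3.88 and 3.74 in K5-PIK luminal cells, against 4.05 and 4.25 in basal cells, with adjusted p = 0.0785 and 0.182.

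Fzd6 was the 1 Frizzled called lower in basal than in luminal cells of a genotype, in YFP cells of 10 months (-0.97 ± 0.18, adjusted p = 0.00106, and 0.0679 in the fit of all 28 arrays), and it was higher in K5-PIK luminal than in those YFP basal cells (0.85 ± 0.18). Fzd5 was lower in K5-PIK luminal than in K5-PIK basal cells (-0.87 ± 0.29, adjusted p = 0.048, up to 0.279 without the replicate 1 array of K5-PIK basal or the replicate 2 array of K5-PIK luminal cells). The Fzd5 call was lost too with the fibroblast covariate, the fit of all 28 arrays, no filter and the trended robust prior (adjusted p = 0.415, 0.0818, 0.0591 and 0.0519). Fzd4 and Fzd10 were called in tumours alone. The opposite-strand RNA Fzd10os was high in YFP luminal cells, with 5.70 and 5.69 in YFP basal cells at 8 weeks, against 6.87 and 6.98 in luminal cells, and 5.43 and 5.58 at 10 months, against 6.95 and 7.12. The PIK arrays had 5.30 and 5.39 in K8-PIK basal cells, against 6.06 and 6.03 in K8-PIK luminal cells, and 5.27 and 5.99 in K5-PIK luminal cells, against 5.34 and 4.47 in K5-PIK basal cells. All 4 YFP luminal arrays lay above all 12 others, and the YFP differences were -1.23 ± 0.26 and -1.53 ± 0.26 (adjusted p = 0.00455 and 0.00069). Neither PIK gate pair was called (adjusted p = 0.0838 and 0.0672).

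The secreted inhibitors held the widest range. Wif1, which binds Wnt ligands outside the cell, had 8.60 and 7.84 in K8-PIK basal cells, against 3.48 and 3.01 in K8-PIK luminal cells. It had 3.04 and 2.90 in K5-PIK luminal cells, against 8.14 and 7.36 in K5-PIK basal cells. YFP basal cells had 8.16 and 8.92 at 8 weeks, against 2.97 and 3.10 in luminal cells, and 8.28 and 8.33 at 10 months, against 2.30 and 2.40. Every basal array was at 7.36 or above and every luminal array at 3.48 or below, under the limit for dim genes. The fitted differences were 4.97 ± 0.31, -4.78 ± 0.31 (luminal minus basal), 5.50 ± 0.31 and 5.95 ± 0.31, with adjusted p from 1.38e-07 to 2.22e-06. Luminal values that dim have no reliable order, so the size of the difference is uncertain.

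Sfrp1, which binds Wnts and Frizzleds, had 8.40 and 7.55 in K8-PIK basal cells, against 5.35 and 5.03 in K8-PIK luminal cells. It had 6.21 and 5.46 in K5-PIK luminal cells, against 9.18 and 9.48 in K5-PIK basal cells. Values in YFP basal cells were 8.36 and 8.96 at 8 weeks, against 5.04 and 5.11 in luminal cells, and 8.67 and 8.92 at 10 months, against 4.68 and 4.74. The gates lay far apart in each pair, with the K5-PIK luminal arrays the highest of the luminal ones. Differences were 2.79 ± 0.30, -3.49 ± 0.30 (luminal minus basal), 3.59 ± 0.30 and 4.09 ± 0.30, and all 4 calls were kept with any single array left out.

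Sfrp2, a relative of Sfrp1, had 8.08 and 7.76 in K8-PIK basal cells, against 5.60 and 4.86 in K8-PIK luminal cells. It had 5.84 and 6.85 in K5-PIK luminal cells, against 7.80 and 8.66 in K5-PIK basal cells. The YFP basal arrays had 6.80 and 7.16 at 8 weeks, against 4.38 and 5.12 in luminal cells, and 6.97 and 7.12 at 10 months, against 4.45 and 3.94. Both gates stood higher in PIK than in YFP cells of the same time on average, and basal arrays stayed above luminal ones in each pair (2.69 ± 0.39, -1.88 ± 0.39 as luminal minus basal, 2.23 ± 0.39 and 2.85 ± 0.39). In the fit of all 28 arrays the K5-PIK call was lost (adjusted p = 0.107). Dkk3, a secreted protein of the Dkk family whose role as a Wnt inhibitor is less clear, had 7.35 and 7.36 in K8-PIK basal cells, against 6.27 and 4.69 in K8-PIK luminal cells, and 5.40 and 5.42 in K5-PIK luminal cells, against 9.18 and 9.49 in K5-PIK basal cells. In YFP basal cells Dkk3 had 7.92 and 8.46 at 8 weeks, against 5.28 and 5.10 in luminal cells, and 8.37 and 8.81 at 10 months, against 4.55 and 5.06. Its gate difference was 1.88 ± 0.39 in K8-PIK cells, -3.93 ± 0.39 in K5-PIK cells (luminal minus basal), and 3.00 ± 0.39 and 3.78 ± 0.39 in YFP cells, again with no overlap and with calls kept whichever array was left out. The K8-PIK call of Dkk3 was lost in the fit of all 28 arrays (adjusted p = 0.113).

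Of the feedback genes, Rnf43 was higher in basal cells in all 4 gate comparisons. Rnf43, the ubiquitin ligase that removes Frizzleds, had 5.96 and 5.54 in K8-PIK basal cells, against 4.53 and 4.45 in K8-PIK luminal cells, and 4.08 and 4.15 in K5-PIK luminal cells, against 5.71 and 5.75 in K5-PIK basal cells. In YFP mice basal cells had 5.45 and 5.87 at 8 weeks, against 4.18 and 4.63 in luminal cells, and 5.46 and 5.95 at 10 months, against 3.80 and 4.18. The groups did not overlap in any pair, and the differences were 1.26 ± 0.23, -1.62 ± 0.23 (luminal minus basal), 1.26 ± 0.23 and 1.72 ± 0.23. The call of 8 weeks in YFP cells was lost with the endothelial covariate (adjusted p = 0.129), with the fibroblast covariate (0.0521) and in the fit of all 28 arrays (0.0603), which also lost the K8-PIK call (0.0871). Its paralogue Znrf3 had 4.97 and 4.64 in K5-PIK luminal cells, against 5.80 and 5.51 in K5-PIK basal cells (-0.85 ± 0.17, adjusted p = 0.00292). In YFP basal cells Znrf3 had 5.44 and 5.70 at 8 weeks, against 5.07 and 5.04 in luminal cells (0.51 ± 0.17), and 5.49 and 5.59 at 10 months, against 4.79 and 4.97 (0.66 ± 0.17). The call of 8 weeks was lost without the replicate 2 basal or either luminal array, and that of 10 months without the replicate 1 luminal array (adjusted p up to 0.195 and 0.0643). Both were lost with the endothelial covariate (0.579 and 0.317) and the fibroblast covariate (0.533 and 0.29), the first also in the fit of all 28 arrays (0.0802), and the K5-PIK call with the fibroblast covariate (0.112). The K8-PIK pair, 5.49 and 5.54 in basal against 5.10 and 5.09 in luminal cells, did not pass (adjusted p = 0.108). By the second Znrf3 probe set these gates averaged 5.63 and 4.20. With the mean of its probe sets Znrf3 was called higher in K8-PIK basal than in K8-PIK luminal cells (0.93, adjusted p = 0.0025). It was also called higher there than in YFP luminal cells of 8 weeks (1.06, adjusted p = 0.000721).

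Axin2, a beta-catenin target that dampens the signal, was dim, with 4.51 and 5.43 in YFP basal cells at 8 weeks, against 3.78 and 4.18 in luminal cells (0.99 ± 0.26, adjusted p = 0.0131). Without the replicate 2 array of YFP basal cells or the replicate 1 array of YFP luminal cells the call was lost (adjusted p up to 0.12), as it was with the endothelial or the fibroblast covariate (0.55 and 0.29). It had 4.06 and 4.41 in YFP basal cells at 10 months, 4.07 and 4.06 in K8-PIK basal and 4.38 and 4.17 in K5-PIK basal cells, and no other gate pair was called. Nkd1, a further feedback gene, lay between 5.15 and 6.23 on all 28 arrays by the brightest of its 4 probe sets. A dimmer one, above the 40th percentile on 8 arrays, averaged 4.55 in YFP basal against 3.43 in YFP luminal cells of 8 weeks. In K5-PIK cells it averaged 4.32 in basal against 3.30 in luminal cells. Another averaged lower in K5-PIK basal than in K5-PIK luminal cells (5.11 against 5.26).

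**Figure D2:**
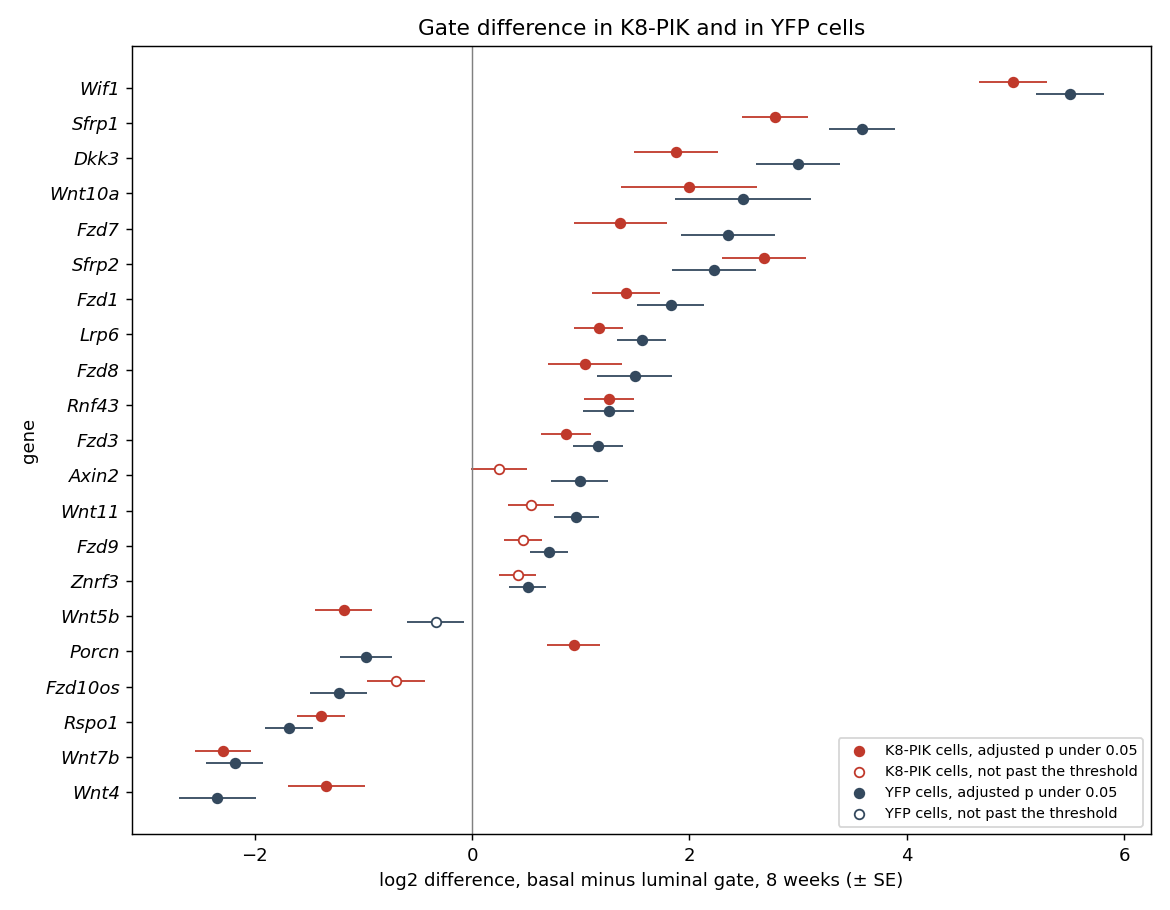
Log2 difference between gates (basal minus luminal, ± SE, 2 arrays per group) in K8-PIK cells and in YFP cells at 8 weeks, for the 21 genes called in either pair. Filled points passed the threshold, and Porcn is the 1 gene with filled points on both sides of 0, at 0.93 ± 0.24 in K8-PIK cells and -0.98 ± 0.24 in YFP cells.

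For 32 of the 51 genes RefSeq promoter sequence was matched by Entrez gene ID, 39 windows of 250 bases before a start site on GRCm38.p6. Each window was searched on both strands for a Tcf/Lef core, which was CTTTGAA or the related CTTTGAT, and otherwise CTTTGTA or the related CTTTGTT. A match was found in 5 of the 39 windows, 12.8%, against 14.8% of all 32851 windows. Windows of the genes were rich in G and C, with a median of 66.4% against 52.4% over all windows. The 3 windows shown belong to an inhibitor and a receptor high in basal cells and to a ligand high in luminal cells, with any match in capitals. They lie at chr10:121033754-121034003 (Wif1), chr1:59481897-59482146 (Fzd7) and chr4:137277385-137277634 (Wnt4), all on the plus strand.
Wif1: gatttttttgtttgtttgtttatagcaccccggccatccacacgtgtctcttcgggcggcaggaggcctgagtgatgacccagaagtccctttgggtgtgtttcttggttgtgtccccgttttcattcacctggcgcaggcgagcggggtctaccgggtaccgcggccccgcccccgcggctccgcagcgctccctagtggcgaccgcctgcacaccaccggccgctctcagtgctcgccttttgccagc
Fzd7: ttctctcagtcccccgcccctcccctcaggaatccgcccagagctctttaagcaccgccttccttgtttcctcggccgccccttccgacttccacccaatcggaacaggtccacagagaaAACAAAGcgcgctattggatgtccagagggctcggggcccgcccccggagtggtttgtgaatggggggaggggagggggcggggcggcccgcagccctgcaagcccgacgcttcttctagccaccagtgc
Wnt4: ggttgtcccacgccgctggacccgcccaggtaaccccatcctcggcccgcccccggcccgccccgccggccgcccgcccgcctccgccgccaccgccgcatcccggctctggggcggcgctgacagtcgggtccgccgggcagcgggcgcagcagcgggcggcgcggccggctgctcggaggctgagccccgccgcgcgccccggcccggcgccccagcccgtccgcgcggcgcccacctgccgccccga
The Fzd7 window holds 1 match, 130 bases before the start, on the minus strand, so that it reads AACAAAG in the line above. The Wif1 and Wnt4 windows hold none of the 4 motifs.

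Porcn, the enzyme that makes Wnt ligands fit for secretion, was the 1 gene called between the gates in opposite directions in PIK and YFP cells. The sign of the difference also changed, without a call in each pair, in 6 other tested genes between K8-PIK and YFP cells of 8 weeks, Wnt5a and Fzd10 among them, and in 4 others between K5-PIK and YFP cells of 10 months. Porcn had 7.18 and 7.22 in K8-PIK basal cells, against 6.37 and 6.16 in K8-PIK luminal cells. It had 5.98 and 6.46 in K5-PIK luminal cells, against 7.33 and 7.29 in K5-PIK basal cells. YFP basal cells had 6.87 and 7.19 at 8 weeks, against 8.38 and 7.63 in luminal cells, and 6.31 and 6.65 at 10 months, against 7.37 and 7.41. In both PIK genotypes the luminal arrays were the lower ones, and in YFP cells of both times the higher ones, with no overlap in any pair. Basal minus luminal was 0.93 ± 0.24 in K8-PIK cells (adjusted p = 0.017), -0.98 ± 0.24 in YFP cells at 8 weeks (adjusted p = 0.00967) and -0.91 ± 0.24 at 10 months (adjusted p = 0.0093). Luminal minus basal was -1.09 ± 0.24 in K5-PIK cells (adjusted p = 0.00547), the 1 of these 4 calls kept with any single array left out. The other 3 were lost without the replicate 1 array of either YFP group at 8 weeks, the replicate 2 luminal or replicate 1 basal array of YFP cells at 10 months, and either K8-PIK basal or the replicate 2 K8-PIK luminal array, with adjusted p up to 0.117, 0.088 and 0.124. In the fit of all 28 arrays all 4 calls were lost, at adjusted p = 0.195 in K8-PIK, 0.103 in K5-PIK and 0.121 and 0.113 in YFP cells. Both YFP calls were lost with the endothelial covariate (0.147 and 0.144) and with the fibroblast covariate (0.189 and 0.227).

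The difference between gate differences was itself tested, as basal minus luminal in PIK cells minus the same in YFP cells. At 10 months 2 of the 38 genes passed (background 7.15%, with 5.19% higher and 1.96% lower): Porcn at 2.00 ± 0.34 (adjusted p = 0.0106) and Rspo1 at -1.21 ± 0.31 (adjusted p = 0.0381). Both calls were lost without the replicate 2 array of YFP luminal or the replicate 1 array of YFP basal cells of 10 months, where the adjusted p of Porcn reached 0.0581, and in a fit of all 28 arrays, where it was 0.0919. With the endothelial covariate the Rspo1 call was lost (0.177), and Rspo1 lay below the limit for dim genes on both K5-PIK basal arrays. Among left-out arrays the Rspo1 call was kept only when the replicate 1 array of K5-PIK luminal cells was the one left out (adjusted p up to 0.152 otherwise). Without the replicate 2 array of K5-PIK luminal cells 4 genes were called, and without the replicate 2 array of K5-PIK basal or the replicate 1 array of YFP luminal cells 1 was. At 8 weeks none passed (background 0.0076%, with 0.0076% higher and 0% lower), and Porcn, with 1.91 ± 0.34, had an adjusted p of 0.107. An unadjusted p under 0.05 was reached at 8 weeks by 4 of the 38 members and by 1275 of the 13150 genes tested. The 8-week and 10-month differences share no array, but both tests use the same estimate of the spread, from all 16 sorted arrays, so they are not independent. Each joins the genotype to a change of Cre driver in 1 gate. Only 1 probe set measures Porcn.

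**Figure D3:**
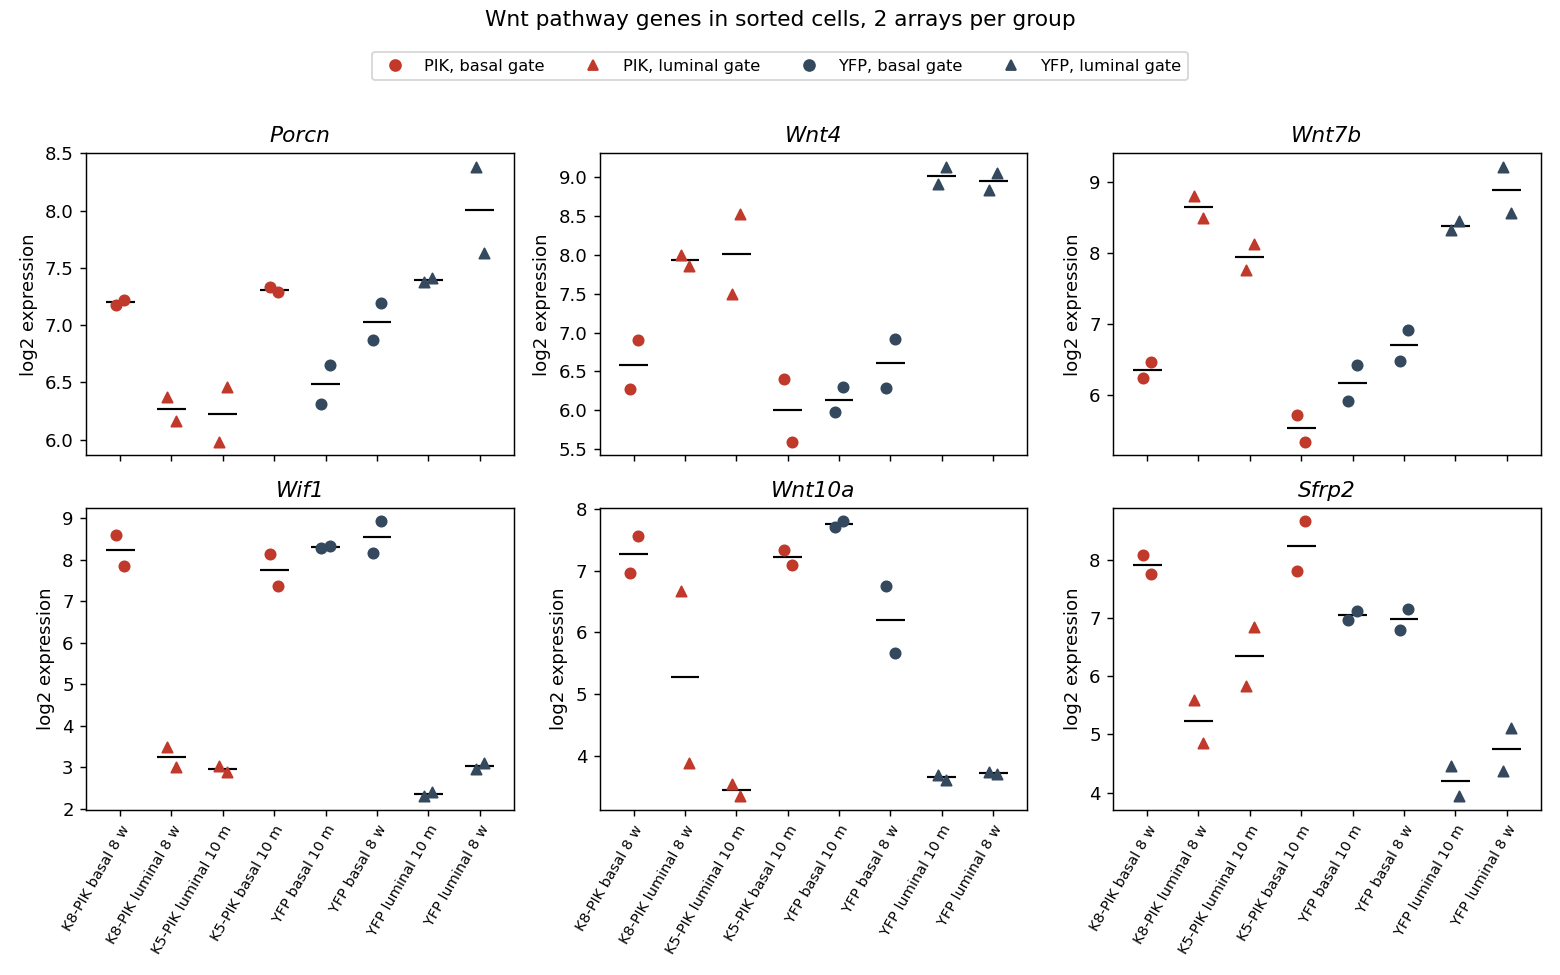
Log2 expression of 6 genes in the 8 groups of sorted cells (points are arrays, 2 per group, and bars are group means). Porcn is lower in PIK luminal than in PIK basal cells and higher in YFP luminal than in YFP basal cells, Wnt4 and Wnt7b are high and Wif1 low in all luminal groups, and 1 K8-PIK luminal array has Wnt10a at 6.67.

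Between PIK3CA-H1047R and YFP cells of the same gate at most 5 of the 38 genes were called. In K8-PIK over YFP luminal cells at 8 weeks, a comparison with 1 Cre driver, Porcn alone was called (0 higher, 1 lower, background 0.35%, with 0.144% higher and 0.205% lower). Its difference was -1.74 ± 0.24 (adjusted p = 0.0101), a call lost without the replicate 1 array of K8-PIK luminal or of YFP luminal cells (adjusted p up to 0.0578), and in the fit of all 28 arrays (0.423). Without the replicate 2 array of K8-PIK luminal cells Wnt10a was called as well, at 2.95 (adjusted p = 0.00681). Unadjusted p under 0.05 was reached by 8 of the 38 members and by 1441 of the 13150 genes tested. Among the 8 were Wnt4 (-1.02 ± 0.35, adjusted p = 0.288) and Wnt5a (-1.18 ± 0.36, adjusted p = 0.223).

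In K8-PIK over YFP basal cells at 8 weeks no member was called by limma (background 0.418%, with 0.335% higher and 0.0837% lower). An unadjusted p under 0.05 was reached by 6 of the 38 members and by 1834 of the 13150 genes tested. The lowest p among the 6 members belonged to Axin2, at 4.07 and 4.06 in K8-PIK basal cells, against 4.51 and 5.43 in YFP basal cells (-0.91 ± 0.26, adjusted p = 0.151). The other 5 were Fzd6 (0.47 ± 0.18), Fzd7 (-1.06 ± 0.43), Sfrp1 (-0.69 ± 0.30), Sfrp2 (0.94 ± 0.39) and Wnt11 (-0.50 ± 0.21). Without the replicate 1 array of YFP basal cells, Axin2 and Fzd7 were called (adjusted p = 0.0424 and 0.0284). Endothelial markers averaged 5.73 to 5.87 in K8-PIK basal arrays, against 6.35 to 7.29 in YFP basal arrays, and fibroblast markers 5.99 to 6.67 against 6.69 to 7.08, and their part in these values was not tested. Against YFP luminal cells, from the K8CREERT2 driver they share, K8-PIK basal cells were higher in 11 and lower in 5 genes (background 28.7%, with 11.6% higher and 17.2% lower). Wif1 (5.19 ± 0.31), Wnt10a (3.55 ± 0.63), Sfrp2 (3.17 ± 0.39) and Sfrp1 (2.90 ± 0.30) were among the higher ones, the first 2 against YFP luminal values below the limit for dim genes, with Dkk3, Fzd1, Fzd3, Fzd7, Fzd8, Lrp6 and Rnf43 also higher. Wnt7b (-2.53 ± 0.26), Wnt4 (-2.36 ± 0.35), Rspo1 (-1.91 ± 0.22), Fzd10os (-1.58 ± 0.26) and Porcn (-0.81 ± 0.24) were lower. With any single array left out 12 of the 16 calls were kept, and Fzd3, Fzd7, Fzd8 and Porcn were lost without at least 1 of these 4 arrays (adjusted p up to 0.24, 0.273, 0.158 and 0.245). The same 4 calls were the ones lost with the endothelial and with the fibroblast covariate (up to 0.105 and 0.121). That comparison shares its arrays with the K8-PIK and YFP ones above.

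At 10 months K5-PIK basal cells had 2 genes higher and 2 lower than YFP basal cells, a comparison with 1 Cre driver (background 16.3%, with 8.28% higher and 8.02% lower). Fzd8 (1.36 ± 0.34, adjusted p = 0.02) and Porcn (0.83 ± 0.24, adjusted p = 0.0356) were higher. Wnt5b (-1.09 ± 0.26, adjusted p = 0.0173) and Rspo1 (-0.88 ± 0.22, adjusted p = 0.0184) were lower. Of the 4 calls 2 were kept without the replicate 1 array and 0 without the replicate 2 array of YFP basal cells, where 1 other gene was called, and Fzd8 alone was kept in the fit of all 28 arrays. No call was left without the replicate 2 array of K5-PIK basal cells or with the endothelial marker mean as a covariate. Endothelial markers averaged 4.51 to 5.45 in K5-PIK basal arrays, against 6.13 to 7.08 in YFP basal arrays.

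K5-PIK luminal cells had 2 genes higher and 3 lower than YFP luminal cells of 10 months (background 6.4%, with 2.08% higher and 4.32% lower), in a comparison that also changes the Cre driver. The inhibitors Sfrp2 (2.15 ± 0.39, adjusted p = 0.00877) and Sfrp1 (1.13 ± 0.30, adjusted p = 0.0459) were higher. Wnt5a (-2.01 ± 0.36, adjusted p = 0.00846), Fzd10os (-1.41 ± 0.26, adjusted p = 0.011) and Porcn (-1.17 ± 0.24, adjusted p = 0.0166) were lower. The 5 calls became 2 without the replicate 1 array of K5-PIK luminal or of YFP luminal cells. None of the 5 was called without the replicate 2 array of YFP luminal cells, or in the fit of all 28 arrays. The Sfrp1 call was lost with no filter and with the fibroblast covariate too (adjusted p = 0.055 and 0.0643), and Wnt5a lay below the limit for dim genes on both K5-PIK luminal arrays. The basal marker list averaged 7.19 to 7.35 in the K5-PIK luminal arrays, against 5.91 to 6.21 in the YFP luminal arrays, and its part in the higher Sfrp values was not tested.

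Against YFP basal cells, which share their driver, K5-PIK luminal cells were higher in 4 and lower in 14 genes (background 37.3%, with 18.5% higher and 18.8% lower). Higher were Wnt4 (1.87 ± 0.35), Wnt7b (1.78 ± 0.26), Fzd6 and Rspo4. Wif1 (-5.33 ± 0.31), Wnt10a (-4.32 ± 0.63), Dkk3 (-3.18 ± 0.39), Sfrp1 (-2.96 ± 0.30) and Wnt5a (-2.84 ± 0.36) were lower, as were Fzd1, Fzd2, Fzd3, Fzd7, Fzd8, Lrp6, Rnf43, Wnt11 and Znrf3. Wif1, Wnt10a and Wnt5a lay below the limit for dim genes on both K5-PIK luminal arrays, so the sizes of their differences are uncertain. Sfrp2 was not among them (-0.70 ± 0.39, adjusted p = 0.175). With the endothelial marker mean as a covariate 9 of the 18 calls were kept, and Fzd1, Fzd2, Fzd6, Fzd7, Fzd8, Rnf43, Rspo4, Wnt11 and Znrf3 were lost (adjusted p up to 0.334). Fzd2, Rspo4 and Znrf3 were lost with the fibroblast covariate (up to 0.179), and Fzd2, Fzd6 and Rspo4 in the fit of all 28 arrays (up to 0.121). The calls for Fzd2, Fzd8 and Rspo4 were lost without the replicate 1 array of K5-PIK luminal or the replicate 2 array of YFP basal cells (adjusted p up to 0.137, 0.0868 and 0.271).

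No gene passed the threshold between times in YFP cells. In YFP luminal cells at 10 months against 8 weeks 0 were called by limma (background 0.0608%, with 0.0304% higher and 0.0304% lower). An unadjusted p under 0.05 was reached by 3 of the 38 members and by 1227 of the 13150 genes tested. Rspo1 came nearest to a call, with 3.98 and 3.69 at 10 months, against 4.84 and 5.21 at 8 weeks (-1.19 ± 0.22, adjusted p = 0.064). With a trended and robust prior it was called (adjusted p = 0.0435). In YFP basal cells 0 were called (background 1.27%, with 0.875% higher and 0.395% lower). There 9 of the 38 members and 2638 of the 13150 genes tested had an unadjusted p under 0.05. Among the members the p was lowest for Fzd6 (-0.62 ± 0.18, adjusted p = 0.1). Without the replicate 1 array of YFP basal cells of 8 weeks Axin2 was called, at -1.20 (adjusted p = 0.0443).

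Tumour cells were set against YFP cells of the gate in which their Cre driver acts, as the mean of both times, in the fit of all 28 arrays. In K8-PIK tumours 7 genes were higher and 4 lower than in YFP luminal cells (background 10.6%, with 4.47% higher and 6.13% lower). Among the inhibitors Sfrp2 had a lowest of 6.60, a median of 7.27 and a highest of 8.17 over the 7 tumours, against 4.38 and 5.12 in YFP luminal cells at 8 weeks and 4.45 and 3.94 at 10 months. Every tumour lay above every YFP luminal array (2.94 ± 0.47, adjusted p = 0.000765). Sfrp1 had a lowest of 6.05, a median of 6.56 and a highest of 8.45 in the tumours, against 5.04 and 5.11 at 8 weeks and 4.68 and 4.74 at 10 months in YFP luminal cells, again without overlap (2.26 ± 0.45, adjusted p = 0.00388).

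The receptors Fzd1, Fzd2, Fzd7, Fzd8 and Fzd9 were also higher in K8-PIK tumours. Fzd7 had a lowest of 5.65, a median of 6.10 and a highest of 6.53 in the tumours, against 5.18 and 5.29 at 8 weeks and 4.63 and 4.42 at 10 months in YFP luminal cells (1.24 ± 0.25, adjusted p = 0.0039). Fzd1 had a lowest of 6.11, a median of 6.30 and a highest of 8.16, against 5.55 and 5.35 at 8 weeks and 5.12 and 4.77 at 10 months (1.48 ± 0.32, adjusted p = 0.00668), and neither gene overlapped between the groups. For Fzd2 (1.47 ± 0.35), Fzd8 (0.93 ± 0.25) and Fzd9 (0.38 ± 0.11) the values overlapped. Wnt4, the luminal ligand, was lower, with a lowest of 5.68, a median of 7.28 and a highest of 8.75 in the tumours, against 8.84 and 9.06 at 8 weeks and 8.91 and 9.13 at 10 months (-1.62 ± 0.40, adjusted p = 0.014). So were Fzd10os (-1.82 ± 0.23, adjusted p = 0.000117), Rspo1 (-0.97 ± 0.18) and the dim Fzd10 (-0.53 ± 0.16). Fzd10 lay above the 40th percentile on only 2 of the 28 arrays, both YFP luminal, at 4.14 and 3.95. It passed the filter only through the cells in which it was higher, so its call cannot be read as support for a difference. For Rspo1 the difference was -1.56 against YFP cells of 8 weeks alone and -0.37 against those of 10 months alone, where the call was lost (adjusted p = 0.373), and 1 of the 7 tumours lay above the limit for dim genes. Of the 11 calls 3 (Fzd10os, Rspo1 and Sfrp2) were kept against the YFP cells of 8 weeks alone, and 6 (Fzd1, Fzd10os, Fzd2, Fzd7, Sfrp1 and Sfrp2) against those of 10 months alone. With the fibroblast marker mean as a covariate 4 were kept (Fzd10os, Fzd7, Rspo1 and Sfrp2), and Sfrp1 and Fzd1 were among the 7 lost (adjusted p = 0.0895 and 0.167). There were 6 and 7 calls without the replicate 2 and the replicate 1 array of YFP luminal cells of 10 months. The replicate number as a block ended the Fzd8 and Fzd9 calls (0.199 and 0.0698). With any single array left out 6 of the 11 were kept. Fzd8 and Wnt4 were lost without any 1 of the 4 YFP luminal arrays (adjusted p up to 0.0947 and 0.0674), and Fzd2 without the replicate 2 array of 10 months (0.0601). Fzd9 was lost without tumour 2, 6 or 7, either YFP luminal array of 10 months or the replicate 1 array of 8 weeks (up to 0.227), and Fzd10 without any 1 tumour but tumour 4, or without the replicate 2 array of 10 months (up to 0.0881). The fibroblast mean ran from 5.22 to 8.55 over the 7 tumours, against 4.93 to 5.96 in YFP luminal arrays. The basal marker mean ran from 6.82 to 9.72 in the tumours, against 5.91 to 7.04 in YFP luminal arrays, and its part in these values was not tested.

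K5-PIK tumours had 2 genes higher and 13 lower than YFP basal cells (background 30%, with 15.5% higher and 14.5% lower). Wnt7b had 8.95, 8.49 and 8.37 in the tumours, against 6.49 and 6.92 in YFP basal cells at 8 weeks and 5.92 and 6.43 at 10 months (2.17 ± 0.47, adjusted p = 0.00172). Wnt4 had 8.24, 8.36 and 8.68, against 6.28 and 6.92 at 8 weeks and 5.98 and 6.30 at 10 months (2.06 ± 0.49, adjusted p = 0.00336). Both ligands lay in the range of luminal cells in all 3 tumours. Wif1 was low, with 4.01, 3.39 and 3.92 in the tumours, against 8.16 and 8.92 at 8 weeks and 8.28 and 8.33 at 10 months in YFP basal cells (-4.65 ± 0.92, adjusted p = 0.0009), and 2 of the 3 tumours lay below the limit for dim genes. Wnt10a had 4.06, 3.58 and 3.82, against 6.75 and 5.66 at 8 weeks and 7.71 and 7.80 at 10 months (-3.16 ± 0.62), and Dkk3 4.43, 5.23 and 6.37, against 7.92 and 8.46 at 8 weeks and 8.37 and 8.81 at 10 months (-3.05 ± 0.55).

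The receptors Fzd7 (-2.06 ± 0.30), Fzd1 (-1.77 ± 0.39), Fzd3 (-1.06 ± 0.20), Fzd4 (-0.86 ± 0.30) and Fzd5 (-0.70 ± 0.25), the co-receptor Lrp6 (-1.40 ± 0.19), the ligand Wnt11 (-1.38 ± 0.30), the inhibitor Sfrp1 (-1.64 ± 0.55) and the feedback genes Znrf3 (-0.67 ± 0.15) and Axin2 (-0.63 ± 0.20) were lower as well. The calls for Axin2, Fzd4, Fzd5 and Sfrp1 were lost without the replicate 2 array of YFP basal cells at 8 weeks or at 10 months, and each without at least 1 tumour array, with adjusted p up to 0.12, 0.17, 0.119 and 0.133. Axin2 averaged 3.97 in the tumours, against 4.97 in YFP basal cells of 8 weeks and 4.23 in those of 10 months. Against 10 months alone its difference was -0.26 and the call was lost (adjusted p = 0.424). Fzd4, Fzd5 and Sfrp1 were lost against either time alone, at 0.054, 0.0692 and 0.125 for 8 weeks and 0.177, 0.146 and 0.0524 for 10 months, and Fzd5 with the mean of probe sets (0.0971). Sfrp2 had 6.86, 6.12 and 8.11 in the tumours, against 6.80 and 7.16 at 8 weeks and 6.97 and 7.12 at 10 months, and overlapped. The basal marker list averaged 7.93 to 8.53 and the luminal list 10.43 to 10.53 in these tumours, against 9.91 to 10.30 and 7.56 to 9.10 in YFP basal arrays, and their part in these calls was not tested.

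Between tumour genotypes limma called no member. In K5-PIK over K8-PIK tumours no gene of the 13244 tested was called (background 0%). An unadjusted p under 0.05 was reached by 3 of the 38 members and by 1225 of the 13244 genes. Fzd7 had the lowest p of the members, with 5.21, 5.54 and 5.35 in K5-PIK tumours, against a lowest of 5.65, a median of 6.10 and a highest of 6.53 in K8-PIK tumours (-0.75 ± 0.20, adjusted p = 0.448). In K8-PIK-p53 over K8-PIK tumours the background of calls was 0.325%, with 0.227% higher and 0.0982% lower. There 6 of the 38 members and 2615 of the 13244 genes tested had an unadjusted p under 0.05. Lrp5 had 7.86 and 8.18 in K8-PIK-p53 tumours, against a lowest of 8.41, a median of 8.67 and a highest of 8.99 in K8-PIK tumours (-0.66 ± 0.17, adjusted p = 0.106), with both p53 arrays below all 7 others. In the fit of all 28 arrays Lrp5, Fzd2, Fzd6 and Wnt10b were called (adjusted p = 0.025, 0.0396, 0.0301 and 0.0276). Without the replicate 3 array of K8-PIK tumours Dkk2 and Fzd2 were called (adjusted p = 0.00286 and 0.0293).

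The K8-PIK tumours differed widely among themselves. Wif1 was at 8.00 in tumour 1 and 7.52 in tumour 6, in the range of sorted basal cells, and at 2.53 to 4.77 in the other 5. Those were the 2 tumours with the highest basal marker means, 9.72 and 9.48, against 6.82 to 8.37 in the others, whose part in the Wif1 values was not tested. Tumour 1 also had the lowest Wnt4 (5.68) and Wnt7b (5.70) of the 7, while tumour 6 had them at 7.13 and 7.63. Tumour 3 had the highest Wnt5a (8.98), Wnt9a (6.59), Fzd1 (8.16), Fzd2 (8.33) and Dkk2 (6.18) of the 7. Its luminal marker mean was the lowest, at 8.39. Wnt5a was at 3.22 in tumour 7 and 4.83 to 6.49 in the other 5.

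**Figure D4:**
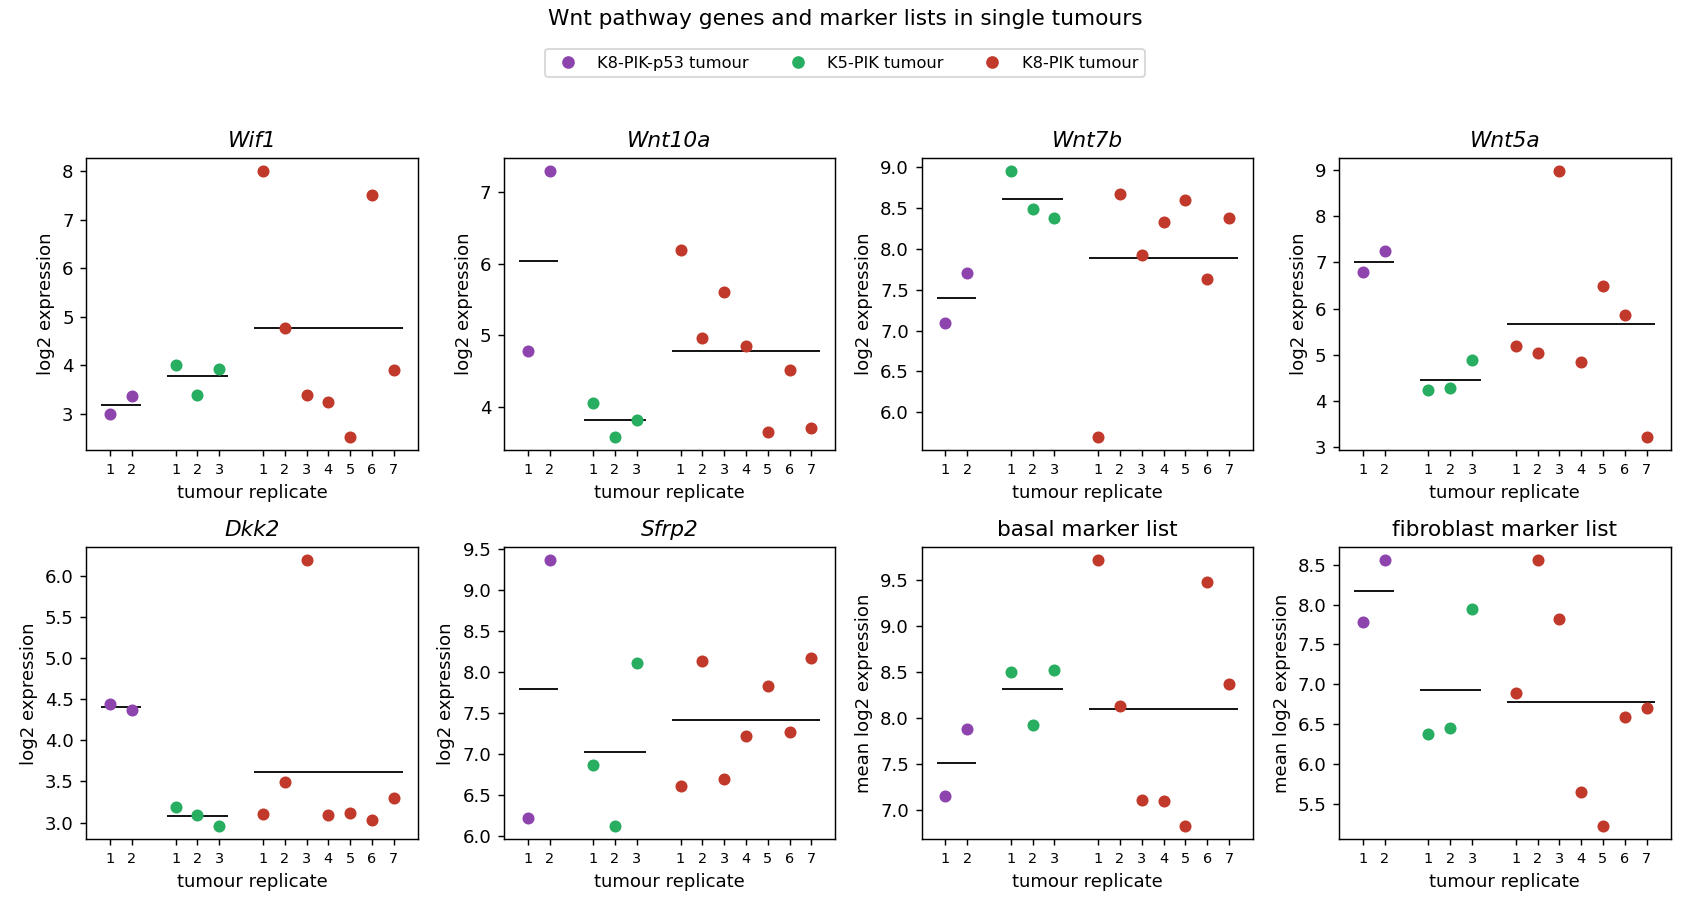
Log2 expression of 6 genes, and mean log2 expression of the basal and fibroblast marker lists, in each of the 12 tumours (points, numbered by replicate, with group means as bars). K8-PIK tumours 1 and 6 have Wif1 at 8.00 and 7.52 together with the highest basal marker means, and K8-PIK tumour 3 has Wnt5a at 8.98 and Dkk2 at 6.18.

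A list of 64 other genes of the pathway, 60 of them on the array, was read beside the members. Of 57 tested in sorted cells, 17 were higher and 2 lower in YFP basal than luminal cells at 8 weeks, and 23 higher and 6 lower at 10 months. These are 33.3% and 50.9% of the list, near the 30.3% and 43.4% called over all genes. The R-spondin receptor Lgr5 (5.16 ± 0.28 and 5.90 ± 0.28), its relative Lgr4 (2.55 ± 0.39 and 3.19 ± 0.39) and the planar polarity gene Prickle2 (2.81 ± 0.21 and 3.11 ± 0.21) were among those highest in basal cells. In K8-PIK cells 12 were higher and 1 lower in the basal gate (22.8%, against 19.5% over all genes), led by Prickle2 (3.30 ± 0.21), Lgr5 (2.91 ± 0.28), Lgr4 (2.67 ± 0.39) and Prickle1 (2.37 ± 0.27). In K5-PIK cells 5 were higher and 22 lower in the luminal gate (47.4%, against 23.6%), with Lgr5 at -4.57 ± 0.28.

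In K8-PIK over YFP basal cells Lgr5 was lower (-1.93 ± 0.28, adjusted p = 0.0174) and the target Ccnd1 higher (1.07 ± 0.21, adjusted p = 0.0491), and no other of the 57 was called (3.51%, against 0.418%). In K5-PIK over YFP basal cells 6 were higher and 4 lower, 17.5% against 16.3% over all genes, with the receptor Ptk7 (1.66 ± 0.32) and the inhibitor Sostdc1 (1.58 ± 0.30) highest, and Procr (-2.49 ± 0.58) and Ccnd1 (-1.09 ± 0.21) lowest. K5-PIK over YFP luminal cells had 3 higher, Lgr5 (1.22 ± 0.28), Celsr2 (1.07 ± 0.23) and Gsk3b (0.86 ± 0.19), 5.26% against 6.4%. Ptk7 (2.02 ± 0.46), Gsk3a (0.94 ± 0.22) and Celsr2 (-1.35 ± 0.33) passed the test of gate differences at 10 months (5.26%, against 7.15%). K8-PIK tumours had 9 of 58 higher and 2 lower than YFP luminal cells (19%, against 10.6%). K5-PIK tumours had 5 higher and 15 lower than YFP basal cells (34.5%, against 30%), with Lgr5 at -5.55 ± 0.30. None was called between tumour genotypes, in K8-PIK over YFP luminal cells or between times.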

How the data were processed

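The deposited values are log2 expression of 45141 probe sets on 28 arrays. Per the submitters' processing notes R 2.14.0 was used; background correction, normalisation and summarisation are not given in the sources used here. Array medians lay between 4.40 and 4.50. Probe sets were named from the platform annotation, and where a gene had several, the brightest on average stood for it. Fits used limma 3.58.1 in R 4.3.3 on group means: 16 sorted arrays (13150 genes), 12 tumour arrays (13244 genes), or all 28 (13663 genes) for tumours against YFP cells. P-values were adjusted by Benjamini-Hochberg over all genes tested, and the steps were tested on simulated data. The members and lists were chosen with earlier results of these data known. Genes named with values were those called in at least 3 comparisons or with an absolute log2 difference of 2 or more, and up to 4 other pathway genes per direction; further values, such as those of single tumours, were chosen after they were seen. The labels give no batch or scan, so no such term was fitted. The number of arrays limits the precision. Promoter windows came from RefSeq.

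Alternatives were quantile normalisation, no filter, the mean of probe sets, a trended robust prior, a fit of all arrays, a replicate block, marker means as covariates, 1 YFP time alone, and leaving out each array.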

Additional observations from a re-analysis of the deposited data

Results flagged for a closer look

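In 6 of the 51 genes 1 K8-PIK tumour stood apart from the other 6 by a gap test on the log2 values (Dixon's), which chance alone does in about 1 of 20 genes. Dkk2 was at 6.18 in tumour 3, Fzd10 at 3.84 in tumour 4, Rspo1 at 4.23 in tumour 7 and Wnt1 at 5.81 in tumour 1, each the highest of its 7 values. Wnt7b was at 5.70 in tumour 1 and Wnt8b at 3.33 in tumour 7, each the lowest. Fzd10 and Wnt8b lie below the limit for dim genes on those arrays.

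The gate difference (basal minus luminal) differed between PIK and YFP cells at 10 months by 2.00 for Porcn and by -1.21 for Rspo1 on the log2 scale, by the test of the difference itself. The K5-PIK luminal cells and the YFP luminal cells of that test also differ in Cre driver, so genotype and driver cannot be told apart there.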

How the results depend on the processing

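No call turned direction under any alternative run, and 75 of the 150 calls were kept under each of them. Counts of genes called that moved by over 1.5 times were as follows. With all 28 arrays in 1 fit, K8-PIK over YFP luminal cells had 0, the K8-PIK gates 8, K5-PIK over YFP basal cells 1, K5-PIK over YFP luminal cells 0, the difference of gate differences at 10 months 0 and K8-PIK-p53 over K8-PIK tumours 4. With the endothelial marker mean as a covariate the YFP gates of 8 weeks had 10, K5-PIK over YFP basal cells 0 and K5-PIK luminal over YFP basal cells 9. With the fibroblast mean the YFP gates of 8 weeks had 13 and K8-PIK tumours over YFP luminal cells 5. Those tumours had 6 against YFP cells of 10 months alone and 3 against those of 8 weeks alone. With a trended robust prior YFP luminal cells had 1 between times. The cause was not tested. The share of all genes called under each alternative, or with each array left out, is not given here. These changes in count can therefore not be read as particular to the members.

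Leaving out each array gave 0 to 1 calls for YFP basal cells between times, 0 to 2 for K8-PIK over YFP luminal, 8 to 13 for the K8-PIK gates, 0 to 2 for K8-PIK over YFP basal, 0 to 5 for K5-PIK over YFP basal, 0 to 6 for K5-PIK over YFP luminal cells, 0 to 4 for the difference of gate differences at 10 months, 0 to 2 for K8-PIK-p53 over K8-PIK tumours and 6 to 12 for K8-PIK tumours over YFP luminal cells. Same-numbered sorted arrays deviated together with correlations of -0.078 to 0.380 over 28 pairs of groups, over 0.1 in 11 of them, and tumours in 1 of 7 pairs. The correlation was 0.338 between the K5-PIK gates, 0.040 between the K8-PIK gates and 0.380 between the YFP basal groups of 8 weeks and 10 months. As not every pair was over 0.1, the numbers were not taken to pair samples. That rule spans all groups, and pairing of the gates within a genotype was not tested apart. With the replicate number as a block no count moved by over 1.5 times, and the only calls lost were Fzd8 and Fzd9 in K8-PIK tumours over YFP luminal cells: 23 for the YFP gates of 8 weeks, 21 at 10 months and 20 for K5-PIK tumours over YFP basal cells. With 2 arrays in most groups, small differences in dim genes could not be detected.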
